A study of Mus musculus with 10 samples.

Results

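The Toll-like receptors (TLRs) and the proteins through which they signal were examined in sorted hematopoietic stem cells (HSCs) with and without *Cited2*. The group was set by name, with earlier results of these data known. It held 5 receptors (*Tlr1*, *Tlr2*, *Tlr4*, *Tlr6*, *Tlr9*), 2 co-receptors (*Cd14*, *Ly96*), and the adaptor and kinases *Myd88*, *Irak4* and *Irak3*. All 10 genes were found among the 26146 genes of the count table. RNA was sequenced in bulk from Lin-Sca-1+c-Kit+ (LSK) CD48-CD150+ HSCs of 5 *Cited2* CTL and 5 *Cited2* CKO C57BL/6J mice, aged 8 to 12 weeks and given no treatment that the sources mention. *Cited2* CTL mice carry *Cited2* fl/fl without Cre, although their labels read wildtype. *Cited2* CKO mice carry *Cited2* fl/fl with *Vav-iCre*, which deletes the gene in all blood cells from soon after HSCs arise and not in HSCs of the adult only. Both groups therefore share the floxed alleles, and Cre is present in the CKO group alone. *Cited2* encodes a transcriptional regulator that binds CBP and p300.

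TLRs are receptors that recognize microbial molecules. TLR4 binds lipopolysaccharide together with MD-2, the product of *Ly96*, and with CD14, whereas TLR2 pairs with TLR1 or TLR6 to bind lipopeptides and TLR9 binds CpG-rich DNA in endosomes. All of these receptors recruit the adaptor MyD88, which assembles IRAK4 and its partner kinases to activate NF-κB, and IRAK3 (IRAK-M) restrains that step. HSCs are known to carry some TLRs and can respond to their ligands directly.

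The libraries held between 3058690 and 4548795 counts, and CPM below are counts scaled to the TMM-normalized total of the tested genes. *Cited2* itself ranged from 101 to 222 CPM in the CTL libraries and was at 3.80, 4.21, 5.00 and 8.30 CPM in CKO 1, CKO 2, CKO 4 and CKO 5. The library labelled CKO 3 went against its label, with 120.1 CPM of *Cited2*. It was kept in its labelled group, and the difference of each tested member is also given without it. All 12 HSC markers examined had counts, with a summed level of 2294 to 2597 CPM in CTL and 2073 to 2368 CPM in CKO libraries. Over all 14165 genes tested in edgeR (quasi-likelihood F test, p-values adjusted by Benjamini-Hochberg), 32 (0.226%) were called between the genotypes, that is, had an adjusted p under 0.05 and a fold change above 20%. The median log2 fold change of all tested genes was 0.01.

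Among the receptors, *Tlr4* had the highest level per length in CTL HSCs, at 26.1 ± 7.71 CPM per kb of gene length (SD, n = 5). *Tlr4* (chromosome 4 of GRCm38, 66827584 to 66930284, plus strand) encodes the lipopolysaccharide receptor. It was measured at 125, 79.6, 94.96, 136 and 66.1 CPM in CTL 1 to CTL 5 and at 86.3, 87.1, 78.0, 67.9 and 108 CPM in CKO 1 to CKO 5. Every CKO library lay between the lowest and the highest CTL library. The means were 100.4 ± 29.7 CPM in CTL and 85.5 ± 14.8 CPM in CKO (SD, n = 5 each), and the log2 fold change was -0.23 (standard error, SE, 0.18, adjusted p = 0.653, edgeR). Its 95% interval ran from 0.65-fold to 1.12-fold of CTL. Without CKO 3 the log2 fold change was -0.19 (adjusted p = 0.774, same edgeR test).

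*Tlr2* (chromosome 3, 83836272 to 83841767, minus strand), the shared partner of both lipopeptide receptors, had the lowest log2 fold change of the tested members. Its levels were 46.1, 46.5, 27.9, 59.0 and 49.0 CPM in CTL 1 to CTL 5 and 51.3, 43.8, 37.6, 14.99 and 22.4 CPM in CKO 1 to CKO 5. CKO 4 and CKO 5 were below every CTL library, while CKO 1 to CKO 3 lay within the CTL range. The means were 45.7 ± 11.2 and 34.0 ± 15.1 CPM (SD, n = 5 each), and the difference was -0.42 on the log2 scale (SE 0.29, adjusted p = 0.579, edgeR). The interval ran from 0.49-fold to 1.14-fold. Without CKO 3 the log2 fold change was -0.47 (adjusted p = 0.611, edgeR).

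*Tlr6* (chromosome 5, 64952031 to 64960097, minus strand), which pairs with TLR2, was the tested member with the fewest counts. It was at 13.7, 9.60, 14.7, 10.97 and 13.6 CPM in CTL 1 to CTL 5 and at 17.8, 11.4, 13.2, 23.8 and 3.00 CPM in CKO 1 to CKO 5. CKO 4 and CKO 1 were above all CTL libraries and CKO 5 was below them, so the spread within the genotype exceeded the difference between genotypes. The coefficient of variation was 17.1% in CTL, where counting error alone gives 14.6%, and 55.9% in CKO, where it gives 13.6%. The log2 fold change was 0.14 (SE 0.40, adjusted p = 0.915, edgeR), with an interval from 0.61-fold to 2.01-fold and 0.16 without CKO 3. Its direction was not stable: it turned negative with limma-voom and without CKO 4 (-0.16 and -0.14), and with the replicate number as a block (-0.04), alone or with an offset for GC and length (-0.14).

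*Tlr1* (chromosome 5, 64924679 to 64933563, minus strand), the other partner of TLR2 and the neighbor of *Tlr6*, was near the limit of detection. It had 96 counts in all 10 libraries: 7, 3, 2, 17 and 8 in CTL 1 to CTL 5 and 43, 14, 0, 2 and 0 in CKO 1 to CKO 5. CKO 1 alone held 43 of them, and CKO 3 and CKO 5 had none. *Tlr1* did not pass the filter on low counts and was not tested in the comparison. Fitted without that filter, its log2 fold change was 0.54 with a SE of 1.06 (adjusted p = 0.917, edgeR). The transcripts of *Tlr1* and *Tlr6* share 304 stretches of 85 bases, the read length, which are 9.22% of those in *Tlr1* and 8.29% of those in *Tlr6*. Reads from them could have been counted for either gene, and how they were treated is not given in the sources used here.

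*Tlr9* (chromosome 9, 106222598 to 106226883, plus strand), the endosomal DNA receptor, had 0 counts in every library. A count of 0 allows up to 3 counts, which is 0.0764 CPM over the 10 libraries together and 0.656 to 1.00 CPM in a single one, for counting error only. *Tlr9* RNA was thus not detectable at this depth of counted reads in HSCs of either genotype. The paper states an average number of sequenced reads per sample well above these count totals. What became of the other reads was not tested.

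**Figure D1:**
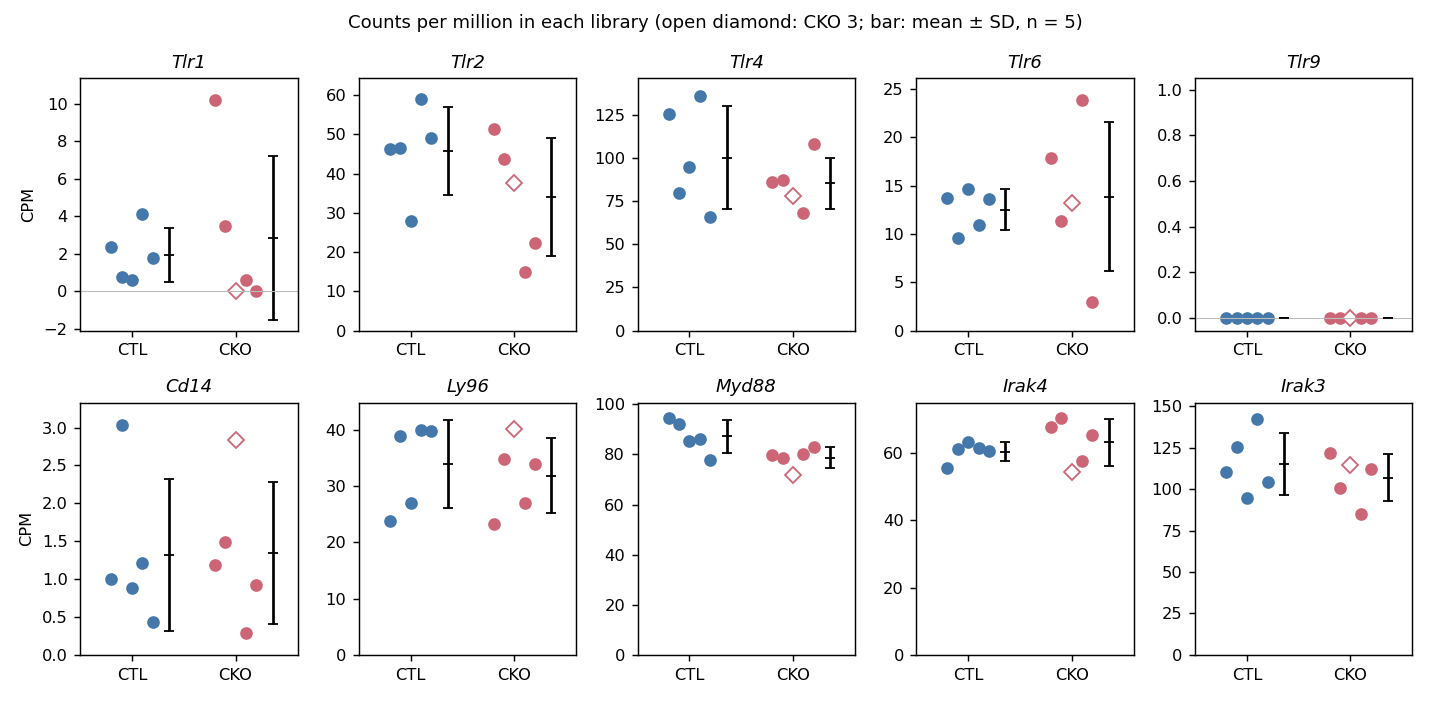
CPM (vertical axis, linear, own scale per panel) of the 10 genes in each of the 5 CTL (blue) and 5 CKO (red) libraries, with the mean ± SD beside the points. The genotypes overlap in all panels, *Tlr9* is at 0 throughout, and the open diamond marks CKO 3, the library that retains *Cited2* RNA.

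The sequences before the start sites of the 4 receptors other than *Tlr4* are shown, since these receptors span levels from clearly measured to undetected. Each run is the 250 bases before the RefSeq start nearest to the annotated gene start (GRCm38.p6), 5′ to 3′ on the strand of the gene, with CG dinucleotides in capitals: chr3:83841609-83841858 (minus strand) for *Tlr2*, chr5:64960049-64960298 (minus) for *Tlr6*, chr5:64933559-64933808 (minus) for *Tlr1* and chr9:106222348-106222597 (plus) for *Tlr9*.
Tlr2: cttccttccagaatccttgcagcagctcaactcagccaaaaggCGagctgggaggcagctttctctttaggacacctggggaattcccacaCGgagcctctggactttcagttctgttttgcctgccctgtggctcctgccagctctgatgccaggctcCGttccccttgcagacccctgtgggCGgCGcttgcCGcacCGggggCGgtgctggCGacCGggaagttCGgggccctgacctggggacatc
Tlr6: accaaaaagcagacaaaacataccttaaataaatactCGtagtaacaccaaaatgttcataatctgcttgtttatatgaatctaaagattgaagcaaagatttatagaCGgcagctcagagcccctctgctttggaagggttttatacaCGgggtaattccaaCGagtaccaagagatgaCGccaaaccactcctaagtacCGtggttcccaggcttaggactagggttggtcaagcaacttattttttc
Tlr1: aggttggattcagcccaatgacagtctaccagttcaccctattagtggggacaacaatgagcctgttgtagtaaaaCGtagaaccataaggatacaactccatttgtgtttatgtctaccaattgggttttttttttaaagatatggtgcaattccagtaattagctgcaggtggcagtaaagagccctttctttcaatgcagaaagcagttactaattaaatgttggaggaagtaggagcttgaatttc
Tlr9: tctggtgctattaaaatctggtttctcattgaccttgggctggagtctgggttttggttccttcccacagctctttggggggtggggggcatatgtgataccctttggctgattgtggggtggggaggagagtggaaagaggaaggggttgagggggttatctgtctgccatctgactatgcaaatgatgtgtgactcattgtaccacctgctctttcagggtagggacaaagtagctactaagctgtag
The *Tlr2* window held 11 CG dinucleotides, that of *Tlr6* 6, that of *Tlr1* 1 and that of *Tlr9* 0. Over all 32851 start windows of the RefSeq table the median was 6, with 7.87% of windows holding 0, 18.8% at most 1, and 50.4% at least 6. The count of CG depended on the start chosen, since the second RefSeq start of *Tlr1* had 8, that of *Tlr6* had 4 and that of *Irak3* had 19. Entries were found for 7 of the 10 genes, not for *Tlr4*, *Cd14* or *Ly96*, and those of *Myd88* and *Irak4* and the nearest start of *Irak3* had 9, 14 and 6. Letters in a window are a description and say nothing of binding or methylation in these cells.

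Of the 2 co-receptors of TLR4, *Ly96* was measured well and *Cd14* barely. *Ly96* (chromosome 1, 16688051 to 16709611, plus strand) was at 23.7, 38.9, 27.0, 40.0 and 39.8 CPM in CTL 1 to CTL 5 and at 23.3, 34.9, 40.2, 27.0 and 33.9 CPM in CKO 1 to CKO 5. The ranges of the genotypes almost coincided. The log2 fold change was -0.09 (SE 0.20, adjusted p = 0.884, edgeR), with an interval from 0.70-fold to 1.26-fold, and -0.19 without CKO 3. With the GC and length offset it was -0.29 (adjusted p = 0.880, edgeR). The *Ly96* transcript has a GC content of 41.1%, below the median of 48.8% over the tested genes.

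*Cd14* (chromosome 18, 36725067 to 36726798, minus strand), which hands lipopolysaccharide to TLR4 and MD-2, had 53 counts in all. They were 3, 12, 3, 5 and 2 in CTL 1 to CTL 5 and 5, 6, 12, 1 and 4 in CKO 1 to CKO 5. No library exceeded 3.03 CPM and the genotypes overlapped almost entirely. *Cd14* was not tested for its low counts, and without the filter its log2 fold change was 0.01 with a SE of 0.88 (adjusted p = 0.999, edgeR).

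The adaptor *Myd88* (chromosome 9, 119335934 to 119341411, minus strand) was measured in every library at a narrow range of levels. It was at 94.6, 91.9, 85.3, 86.3 and 77.7 CPM in CTL 1 to CTL 5 and at 79.9, 78.7, 71.6, 80.3 and 83.0 CPM in CKO 1 to CKO 5. Only CKO 3 lay below the lowest CTL library, and CTL 5 lay below 4 of the 5 CKO libraries. The means were 87.2 ± 6.58 and 78.7 ± 4.24 CPM (SD, n = 5 each), and the difference was -0.15 on the log2 scale (SE 0.09, adjusted p = 0.530, edgeR) and an interval from 0.79-fold to 1.03-fold. Without CKO 3 it was -0.11, and with the GC and length offset -0.03. Its interval was the narrowest of the tested members.

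*Irak4* (chromosome 15, 94543643 to 94581815, plus strand), the first kinase of the complex, was the steadiest member in CTL HSCs. It was at 55.5, 61.1, 63.2, 61.4 and 60.6 CPM in CTL 1 to CTL 5 and at 67.7, 70.5, 54.4, 57.6 and 65.2 CPM in CKO 1 to CKO 5. CKO 1, CKO 2 and CKO 5 were above all CTL libraries, and CKO 3 was below them. The log2 fold change was 0.06 (SE 0.11, adjusted p = 0.850, edgeR), with an interval from 0.89-fold to 1.23-fold, and 0.11 without CKO 3. The coefficient of variation over the CTL libraries was 4.79%, where counting error alone gives 6.6%.

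*Irak3* (chromosome 10, 120141648 to 120202130, minus strand), the kinase-like inhibitor, was at 110.4, 126, 94.7, 142 and 104 CPM in CTL 1 to CTL 5 and at 122, 101, 115, 85.3 and 112 CPM in CKO 1 to CKO 5. Only CKO 4 was outside the CTL range. The log2 fold change was -0.11 (SE 0.12, adjusted p = 0.762, edgeR), with an interval from 0.77-fold to 1.11-fold, and -0.13 without CKO 3. *Myd88*, *Irak4* and *Irak3* overlap exons of genes on the other strand (*Acaa1a* by 290 bases, *Twf1* by 395, and *Gm47009* and *Tmbim4* by 220 together). The use of strand in counting is not given in the sources used here, so some of their reads could belong to those genes.

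Thus 7 of the 10 members were tested, with a positive fold change for 2 and a negative one for 5. None was called, against the 0.226% of all genes tested, and none was called by DESeq2, where 2.43% of genes were. None of the 7 had an unadjusted p under 0.05 in edgeR, DESeq2 or limma-voom, against 5.8% of all tested genes on the higher and 7.08% on the lower side in edgeR. No member separated the genotypes without overlap of the libraries, as 3.33% of tested genes did. Without CKO 3, again no member was called, against 0.292% of genes. The median log2 fold change of the 7 was -0.11. A value past no threshold does not show equal levels: the lowest bounds ran from 0.49-fold for *Tlr2* to 0.89-fold for *Irak4*, and the highest from 1.03-fold for *Myd88* to 2.01-fold for *Tlr6*.

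**Figure D2:**
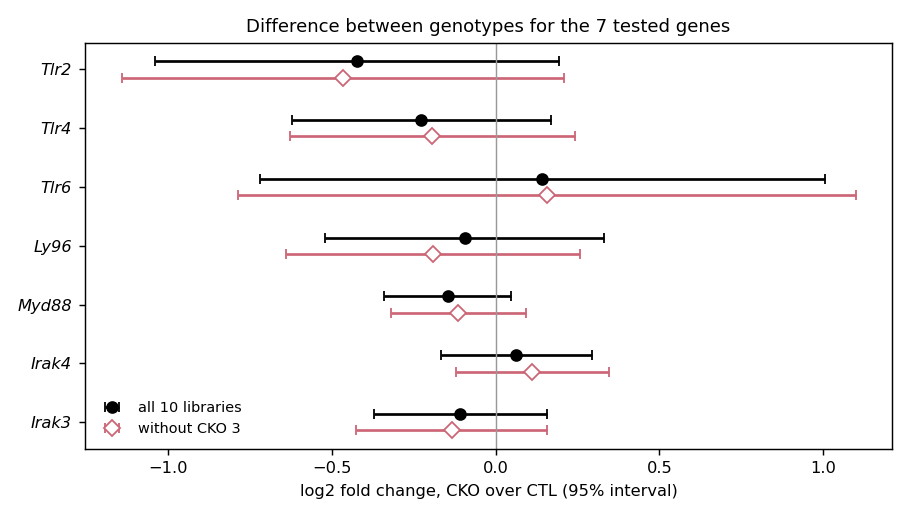
Log2 fold change of *Cited2* CKO over *Cited2* CTL HSCs (horizontal axis) with its 95% interval for the 7 tested genes, from edgeR, over all 10 libraries (black) and without CKO 3 (open diamonds). All intervals include 0; that of *Myd88* is the narrowest and that of *Tlr6* the widest.

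To compare levels between the genes, CPM were divided by the gene length in kilobases that accompanies the counts. The order depends on these lengths, which for *Ly96*, *Tlr4* and *Irak4* were 603, 3847 and 2825 bases. Their annotated exons cover 1021, 5556 and 5021 bases. The order was not repeated with the exon lengths, so close places in it are uncertain, the first place of *Ly96* included. In CTL HSCs *Ly96* came first, at 56.2 ± 13.03 CPM per kb (SD, n = 5), above 91.4% of the genes in the table. *Myd88* followed at 45.8 ± 3.45, *Irak3* at 38.9 ± 6.30, *Tlr4* at 26.1 ± 7.71, *Irak4* at 21.4 ± 1.02 and *Tlr2* at 16.0 ± 3.93 CPM per kb. In this part of the order, each gene overlapped the next in its range over the 5 libraries. Such overlap ignores that the genes share libraries, so it does not show that neighbors had equal levels. *Irak4*, for example, exceeded *Tlr2* in each CTL library, at lengths of 2825 and 2855 bases. The other neighbors were not compared library by library. *Tlr6*, at 4.81 ± 0.820 CPM per kb, lay apart from *Tlr2* above it and from *Cd14* below it, without overlap. *Cd14* (0.878 ± 0.669) and *Tlr1* (0.746 ± 0.560 CPM per kb) overlapped in their ranges, and *Tlr9* was last at 0. The genes of the TLR4 co-receptors MD-2 and CD14 thus lay near opposite ends of the detected range. The order was the same in the CKO means except where *Tlr1* (1.11 CPM per kb) passed *Cd14* (0.898) and *Irak4* (22.3) passed *Tlr4* (22.2). All of these are averages over sorted cells, in which few cells with much RNA and many cells with little cannot be told apart.

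**Figure D3:**
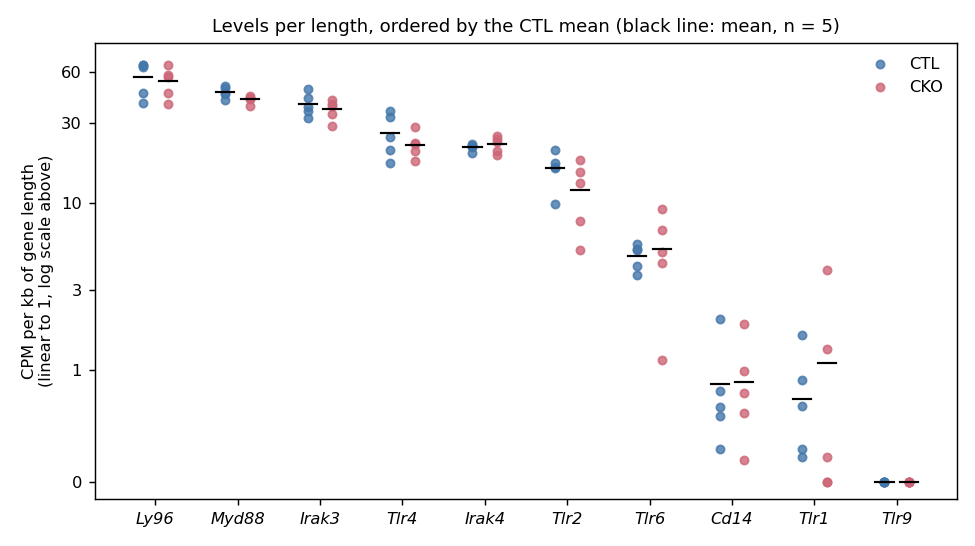
CPM per kilobase of gene length (vertical axis, linear up to 1 and logarithmic above) in the 5 CTL and 5 CKO libraries, with genes ordered by the CTL mean (black lines: means). Levels step down from *Ly96* to *Tlr2* with overlap of neighbors, then drop to *Tlr6*, to *Cd14* and *Tlr1*, and to *Tlr9* at 0.

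The rest of the pathway was read from fixed lists of 90 genes by role, of which 76 were tested. As many had a positive as a negative fold change (38 each), the median log2 fold change was -0.001, and none was called. Without CKO 3, 75 were tested, 31 with a positive and 44 with a negative fold change, and again none was called. At an unadjusted p under 0.05 over all 10 libraries there were 5 on the higher side and 8 on the lower side, against 5.8% and 7.08% of all tested genes. Without CKO 3 there were 8 and 7 in edgeR, for which the share of all genes was not counted. The libraries of the genotypes did not overlap for 3 of the 76, as for 3.33% of all tested genes. These were *Il1r1*, higher in CKO, and *Cnpy3* and *Tnip1*, lower in CKO. Without CKO 3 the log2 fold changes of *Cnpy3* and *Tnip1* were -0.29 and -0.31 in edgeR. Those of *Ikbke*, *Cxcl10* and *Gadd45b* were then -0.64, 1.26 and -0.93. Over all 10 libraries DESeq2 called *Ikbke*, *Cxcl10* and *Gadd45b* of the 76, where it called 2.43% of all genes.

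Of the 7 other TLRs, only *Tlr3* and *Tlr12* were tested. *Tlr3*, the receptor of double-stranded RNA, was at 9.11 to 21.5 CPM in CTL and at 16.2 to 23.3 CPM in CKO except for CKO 5, at 1.15 CPM. *Tlr12* had at most 6.43 CPM and was at 0 in CKO 5. The log2 fold changes were 0.04 for *Tlr3* and 0.36 for *Tlr12* (adjusted p = 0.982 and 0.876, edgeR). Without CKO 3 they were -0.08 and 0.35, so that the sign for *Tlr3* rested on that library. CKO 5, which also had the lowest *Tlr6* level and no *Tlr1* counts, was the library in which fewest genes had a count, 17323 against 19359 to 22831 in the other CKO libraries. *Tlr7* and *Tlr8*, receptors of single-stranded RNA, had counts concentrated in few libraries: 50 of the 70 counts of *Tlr7* were in CKO 1 and 59 of the 114 counts of *Tlr8* in CKO 5. No CTL library held more than 4 counts of *Tlr7* or 9 of *Tlr8*. Fitted without the filter on low counts, their log2 fold changes were 3.13 and 2.92 (SE 1.45 and 1.30, adjusted p = 0.494 and 0.487, edgeR). *Tlr5*, *Tlr11* and *Tlr13* had 8, 5 and 67 counts in all. Their log2 fold changes without the filter were 1.13, 1.39 and 0.76 (adjusted p = 0.833, 0.797 and 0.885, edgeR).

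The chaperones and accessory proteins of the TLRs comprised 7 tested genes, 3 with a positive and 4 with a negative fold change. *Hsp90b1* (gp96), the chaperone that folds most TLRs, was the most abundant at 177 ± 11.4 CPM per kb in CTL. *Cnpy3*, its co-chaperone for TLRs, was at 109.7, 101, 114, 94.6 and 93.2 CPM in CTL 1 to CTL 5 and at 87.2, 88.6, 78.5, 83.5 and 76.0 CPM in CKO 1 to CKO 5. All CKO libraries were below all CTL libraries, yet the log2 fold change of -0.31 did not pass the threshold (SE 0.09, adjusted p = 0.178, edgeR). With the GC and length offset it was -0.09. The 4 tested adaptors other than MyD88 had a median log2 fold change of -0.21, none with an unadjusted p under 0.05. Of these *Pik3ap1* was the most abundant, at 14.9 ± 2.57 CPM per kb in CTL.

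Of the kinases and ubiquitin enzymes downstream of MyD88, 17 were tested, 10 with a positive and 7 with a negative fold change and a median of 0.02. *Tbk1* was the most abundant, at 50.8 ± 5.28 CPM per kb in CTL. *Ikbke*, a kinase related to TBK1, was at 69.9, 61.1, 60.6, 43.6 and 63.7 CPM in CTL 1 to CTL 5 and at 38.7, 38.6, 49.4, 39.4 and 36.4 CPM in CKO 1 to CKO 5, so that 4 CKO libraries were below the CTL range and CKO 3 was within it. Its log2 fold change was -0.56 (SE 0.14, adjusted p = 0.118 in edgeR and 0.0235 in DESeq2, which called it). *Tab2*, which links TRAF6 to the kinase TAK1, had a log2 fold change of 0.39, and *Ikbkb*, the kinase that marks IκB for degradation, of -0.26 (adjusted p = 0.275 and 0.325, edgeR), and 0.46 and -0.27 without CKO 3.

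The inhibitors of TLR signaling were 11 tested genes, 9 of which had a negative fold change, with a median of -0.11. *Ptpn6* (SHP-1) was the most abundant, at 108 ± 5.90 CPM per kb in CTL. *Sigirr*, an inhibitory member of the IL-1 receptor family, had a log2 fold change of -0.37, and *Tnip1*, a partner of A20, of -0.42 (adjusted p = 0.168 and 0.246, edgeR). That of *Sigirr* was -0.30 without CKO 3. *Tnip1* was at 52.6 to 61.5 CPM in CTL and 28.6 to 46.1 CPM in CKO libraries, the lowest of which was CKO 3. With the offset the values were -0.17 and -0.19. *Tnfaip3*, which encodes A20, an enzyme that edits ubiquitin and limits NF-κB, had a log2 difference of 0.61 (adjusted p = 0.218, edgeR) and 0.66 without CKO 3, at 27.1 to 67.8 CPM in CTL and 62.9 to 87.6 CPM in CKO. *Tnfaip3* and its partner *Tnip1* thus had fold changes of opposite sign.

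The 4 IRF transcription factors had a median log2 fold change of -0.22, none with an unadjusted p under 0.05, and *Irf3* was the most abundant at 47.6 ± 4.54 CPM per kb in CTL. The IL-1 receptor family, which also signals through MyD88, had 7 tested genes, 5 with a positive fold change, a median of 0.11 and *Il1rap* as the most abundant (8.70 ± 0.597 CPM per kb in CTL). *Il1r1*, the signaling receptor of IL-1, was at 15.4, 24.8, 24.7, 34.9 and 33.5 CPM in CTL 1 to CTL 5 and at 38.5, 63.1, 38.1, 41.7 and 37.8 CPM in CKO 1 to CKO 5. The CKO libraries were all above the CTL libraries, with CKO 2 well above the rest. The log2 fold change was 0.71 (SE 0.22, adjusted p = 0.208, edgeR) and 0.75 without CKO 3. *Il18rap*, the accessory chain of the IL-18 receptor, had a log2 difference of 0.89 (adjusted p = 0.275, edgeR) and 0.94 without CKO 3.

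Of the early target genes of TLR signaling, 24 of 31 were tested, 14 with a positive and 10 with a negative fold change and a median of 0.04. *Zfp36*, which encodes an RNA-binding protein that destabilizes cytokine transcripts, was the most abundant at 186 ± 27.4 CPM per kb in CTL. *Cxcl10*, a chemokine also induced by interferon, was at 5.00 to 21.7 CPM in CTL and 15.6 to 42.4 CPM in CKO, a difference of 1.23 on the log2 scale (SE 0.35, adjusted p = 0.162 in edgeR and 0.0365 in DESeq2, which called it). *Gadd45b*, a stress-induced target of NF-κB, was at 14.1 to 26.5 CPM in CTL and 6.18 to 14.98 CPM in CKO, a difference of -0.98 on the log2 scale (SE 0.28, adjusted p = 0.152 in edgeR and 0.0373 in DESeq2, which called it). *Relb*, an NF-κB subunit, and *Icam1*, an adhesion molecule, had log2 fold changes of -0.71 and -0.29 (adjusted p = 0.330 and 0.387, edgeR), and -0.52 and -0.30 without CKO 3. That of *Icam1* was -0.11 with the offset. The targets with the lowest p-values thus lay on both sides of 0. The medians of the roles moved with the GC and length offset, to 0.24 for the early targets, -0.09 for the downstream kinases, -0.03 for the IRFs, -0.06 for the adaptors and 0.03 for the IL-1 receptor family, while that of the inhibitors was -0.10.

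**Figure D4:**
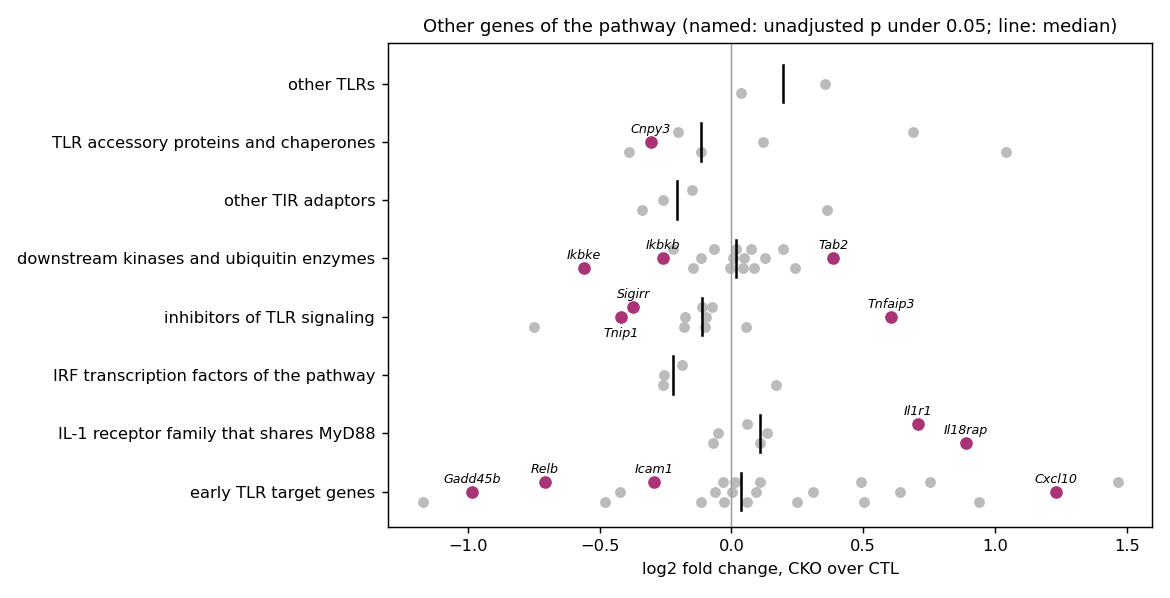
Log2 fold change of CKO over CTL HSCs (horizontal axis) for the 76 tested pathway genes other than the 10 members, 1 row of points per role. Purple points have an unadjusted p under 0.05 in edgeR (5 positive, 8 negative, none called), gray points do not, and the black line is the median of the role.

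Myeloid cells carry TLR RNA, so their markers were set beside these values. The summed level of 12 monocyte and macrophage markers was 330.1 to 357 CPM in CTL libraries and 475, 491, 446 and 480.0 CPM in CKO 1, CKO 2, CKO 4 and CKO 5, but 329.7 CPM in CKO 3. Of the 8 that were tested, 7 had a positive fold change and 3 (*Itgam*, *Cd68* and *Ms4a6c*) had an unadjusted p under 0.05, with 0 called. *Ms4a6c* alone was at 42.0 to 70.9 CPM in CTL, at 146, 134, 129 and 162 CPM in CKO 1, CKO 2, CKO 4 and CKO 5, and at 56.5 CPM in CKO 3. The other 11 markers summed to 276 to 313 CPM in CTL, to 317 to 357 CPM in the same 4 CKO libraries and to 273 CPM in CKO 3. Without CKO 3, *Ms4a6c* passed the threshold in edgeR, at 1.42 on the log2 scale (adjusted p = 0.00244). *Lyz2* was the most abundant, at 228 ± 20.5 CPM in CTL and 226 ± 16.8 CPM in CKO (SD, n = 5 each). No marker of the list was at 0 over all libraries, and *Csf1r*, the receptor that defines the lineage, had at most 7.37 CPM in any library. Neutrophil and granulocyte progenitor markers summed to 188 to 756 CPM in CTL and 149 to 475 CPM in CKO, with *Ly6g* at 0 counts. Both maxima came from replicate 5, since the other CTL libraries had at most 319.9 CPM and the other CKO libraries at most 298.4 CPM. *Mpo*, a marker of this list, was at 190 CPM in CTL 5 and 108 CPM in CKO 5. It was at 9.11 to 19.99 CPM in the other CTL and 6.18 to 18.5 CPM in the other CKO libraries. The summed levels of dendritic cell markers were 194 to 257 and 195 to 260.4 CPM, those of B cells 53.8 to 95.6 and 59.1 to 79.2 CPM, and those of T and NK cells 75.0 to 112 and 99.1 to 128 CPM. Erythroid markers lay at 80.4 to 167 and 112 to 150.2 CPM, megakaryocyte markers at 1038 to 1129 and 927 to 1116 CPM, and CD48+ and lymphoid-primed progenitor markers at 649.7 to 759 and 646 to 737 CPM (CTL and CKO in each case). *Cd48*, absent by design from the surface of the sorted cells, was the one marker called over all 10 libraries (log2 fold change 1.18, adjusted p = 0.0264, edgeR). Without CKO 3 it was called again (1.26, adjusted p = 0.0156, edgeR), together with *Ms4a6c*. The part of these markers in the values of the TLR genes was not tested.

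The mean variation of the receptors between libraries of one genotype was described last. Whether they vary together was not tested: among the CKO libraries, CKO 5 had the highest *Tlr4* (108 CPM) and the lowest *Tlr6* level (3.00 CPM). For *Tlr2*, *Tlr4*, *Tlr6* and *Ly96*, log2 CPM was turned into z-scores with each genotype centered on its own mean, averaged over the 4 genes in each of the 10 libraries and compared with 14158 other genes. The most alike were *Fcrl1*, *Gapvd1*, *Zfp617*, *Gne* and *Acbd3*, with Pearson's r of 0.93, 0.92, 0.92, 0.92 and 0.91. With 10 points that share libraries and depth, these are the highest of many correlations and are given as a description only.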

How the data were processed

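Single-ended reads were mapped by the authors with HISAT2 (v.2.1.0, genome GRCm38) and assigned to genes with Rsubread (v.2.0.1). The deposited table holds raw counts for each gene symbol, and each gene's length. The annotation, strand setting and treatment of multi-mapping or duplicate reads are not given in the sources used here. Genotypes came from the labels. Replicates are the samples the labels number 1 to 5, from the 5 animals per genotype of the study. The limit for 0 counts covers counting error only.

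Counts were analyzed in R 4.3.3 with edgeR 4.0.16 (filterByExpr, TMM, robust quasi-likelihood F test, Benjamini-Hochberg adjustment over all tested genes, adjusted p under 0.05 and fold change above 20%). Log2 CPM used a prior count of 2. Alternatives were DESeq2 1.42.0 (Wald test), limma-voom (limma 3.58.1), DESeq2 size factors, no filter, at least 10 counts in every library, a replicate block, a loess offset for GC content and gene length (span 50%) and each library left out. The procedure was tested on simulated data. Positions come from GENCODE for GRCm38, sequences from RefSeq (GRCm38.p6).

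The genes and lists were chosen with earlier results of these data known, so no test of a list was made. The text names the members, *Cited2*, pathway genes with an unadjusted p under 0.05, the most abundant gene of each role by CPM per kb, and the 5 genes most like the mean of the receptors. *Lyz2* and *Ly6g* were named as the most abundant and the undetected marker. The other TLRs (*Tlr12* among them), *Csf1r*, *Cd48*, *Mpo*, *Itgam*, *Cd68* and *Ms4a6c* were named after their values were seen.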

Additional observations from a re-analysis of the deposited data

Results flagged for a closer look

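The *Cited2* level of the library labelled CKO 3, 120.1 CPM, stood far from the other 4 CKO libraries, with a gap of 0.961 of the range of its group (above Dixon's critical value of 0.71). It was the only such sample among 20 groups of 5 examined, the 9 members with counts and *Cited2* in each genotype, and chance flags about 1 in 20 groups. CKO 3 lay within the range of the other CKO libraries for *Tlr2*, *Tlr4*, *Tlr6* and *Irak3*. It was the highest of them for *Ly96* and the lowest for *Myd88* and *Irak4*.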

How the results depend on the processing

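No member was called under any of the 18 alternatives, and of the 126 fold changes of tested members under them, 122 kept their direction. The lowest adjusted p of a member was 0.442 (*Tlr4* without CTL 5, edgeR). The 4 that reversed were all of *Tlr6*: -0.16 with limma-voom, -0.042 with the replicate block, -0.14 with the offset and block, and -0.14 without CKO 4 (leave-one-out range -0.14 to 0.40). The number of genes called over the whole table, 32, was 338 with DESeq2, 8 with the GC and length offset, 13 with the offset and replicate block, and 8 (without CKO 2) to 42 (without CKO 3) with a library left out. It was 16, 11, 16 and 10 without CTL 1, CTL 2, CTL 3 and CTL 4, and 14 without CKO 1 or CKO 5. The cause of these shifts was not tested. With the replicate number as a block 24 genes were called. Libraries of the same number correlated weakly over the tested genes (-0.099 to 0.212). CTL 1 and CTL 5 correlated best with the CKO library of their number. CTL 2, CTL 3 and CTL 4 did not, so the libraries were not treated as pairs. Single genes could still run alike by number: *Mpo* was highest in CTL 5 (190 CPM) and in CKO 5 (108 CPM). Whether the numbers mark a shared batch was not tested. Without CTL 2, *Tlr1* passed *Cd14* in the order of levels. The number of counted reads limits *Tlr1*, *Cd14* and *Tlr9*, which had 96, 53 and 0 counts in all.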
